A study of Mus musculus with 8 samples.

Results

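Leukocyte adhesion molecules are the proteins of the vessel wall that catch circulating leukocytes and hold them until they cross into the tissue. A set of 7 genes was followed in tumor endothelial cells (TECs): *Sele*, *Selp*, *Vcam1*, *Icam1*, *Icam2*, *Ackr1* and *Madcam1*. They were chosen by symbol, and all 7 were found among the 33641 gene symbols of each library. RNA-seq was performed on FACS-sorted CD45-CD31+ cells, taken at day 21 after tumor cell injection from LLC tumors that had been microdissected out of 4 control and 4 endFoxf1+/- mice. LLC is Lewis lung carcinoma, a mouse lung cancer line, and the cells had been placed in the left lung lobe. The endFoxf1+/- mice carried Pdgfb-iCreER and 1 floxed allele of *Foxf1* on the C57Bl/6 background, and tamoxifen by gavage (3 mg), with which the study also describes treating control mice, removed the first exon of that allele in cells that express the *Pdgfb*-driven recombinase. FOXF1 is a forkhead transcription factor of lung endothelium. The methods give an age of 6 to 8 weeks both for tamoxifen and for the injection of tumor cells, with no age for single samples. The libraries of the comparison group are labelled only as control. The study describes single-transgenic littermates carrying either the floxed allele or the recombinase in one place and wild-type C57Bl/6 mice in another, and which of these each control library came from is not given in the sources used here. The control libraries are called C1 to C4 and the endFoxf1+/- libraries H1 to H4.

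Leukocyte recruitment begins with rolling, in which selectins on endothelium bind carbohydrate ligands on leukocytes. E-selectin (*Sele*) is made after stimulation by cytokines such as TNF and IL-1, whereas P-selectin (*Selp*) is stored in granules of endothelial cells and of platelets and moves to the surface within minutes. Firm arrest follows when leukocyte integrins bind proteins of the immunoglobulin family: ICAM-1 (*Icam1*), which is inducible, ICAM-2 (*Icam2*), which resting endothelium carries, VCAM-1 (*Vcam1*), a ligand of integrin α4β1, and MAdCAM-1 (*Madcam1*), a ligand of integrin α4β7 best known from gut vessels. ACKR1 (*Ackr1*) is an atypical receptor of venular endothelium that binds chemokines without classical signaling and carries them across the cell.

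H3 and H4 of the endFoxf1+/- group stood apart, and the results for the adhesion genes are given with and without them. The level of endothelial transcripts in a library was taken as the geometric mean of 20 endothelial markers on the log2(TPM + 1) scale. Set against its control mean, it ranged from 86.0 to 106% in C1 to C4 and was 108% in H1 and 110% in H2, but 5.60% in H3 and 55.9% in H4. In H3 the 18 leukocyte markers summed to 11060 TPM against 1544 to 5302 TPM in the controls, and *Ptprc*, which encodes CD45, stood at 91.2 TPM against 2.94 to 9.13 TPM. The 14 fibroblast and pericyte markers summed to 1354 TPM in H3, 339 TPM in H4 and 133 to 207 TPM in the controls. The 11 epithelial markers reached 27115 TPM in H4 and 32818 TPM in C3, and no list of markers had a gene at 0 in all 8 libraries. In these bulk samples fewer endothelial cells and less endothelial RNA per cell cannot be told apart. *Foxf1*, the targeted gene, was at 213 to 331 TPM in the controls and at 177, 203, 14.04 and 105 TPM in H1 to H4, so the groups did not overlap (exact permutation test, two-sided, p = 0.0286). Relative to the endothelial markers the mean log2 difference of *Foxf1* was -0.51 (exact p = 0.0571), beside a median of 1.001 over all genes tested. The cells in every library expressed *Pecam1*, which encodes CD31, at 1061 to 1505 TPM in the controls and at 1363, 1398, 77.5 and 914 TPM in H1 to H4.

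**Figure D1:**
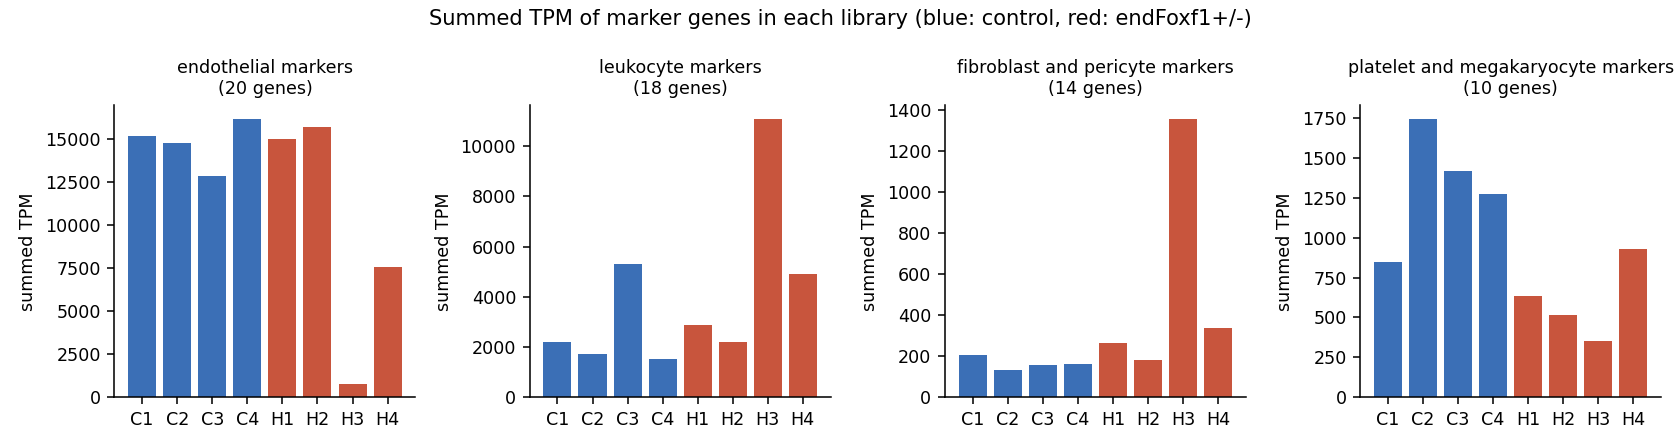
Summed TPM of 4 lists of marker genes in each library, with control libraries in blue and endFoxf1+/- libraries in red and each vertical axis starting at 0. H3 was lowest for endothelial and highest for leukocyte and fibroblast markers, and the platelet sum was 354 to 928 TPM in the endFoxf1+/- libraries against 845 to 1740 TPM in the controls.

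The promoters of inducible adhesion genes are known for binding NF-kB and AP-1. The 250 bases before the RefSeq transcription start (GRCm38.p6) were searched on both strands in the 5 genes that the promoter table held, which were *Sele*, *Selp*, *Icam1*, *Madcam1* and *Ackr1*. The windows of *Sele*, *Icam1* and *Madcam1* are shown, since they belong to inducible genes whose levels lay far apart in these cells. Each is printed 5′ to 3′ on the strand of the gene, and capitals mark matches to the kB consensus, to its looser form GGNNNTTCC or to the AP-1 letters TGANTCA.
Sele, chr1:164047984-164048233, plus strand: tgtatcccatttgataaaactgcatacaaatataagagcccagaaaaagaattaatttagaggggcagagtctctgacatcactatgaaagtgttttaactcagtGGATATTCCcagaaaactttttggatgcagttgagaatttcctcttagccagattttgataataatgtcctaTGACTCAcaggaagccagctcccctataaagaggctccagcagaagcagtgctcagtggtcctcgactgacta
Icam1, chr9:21015690-21015939, plus strand: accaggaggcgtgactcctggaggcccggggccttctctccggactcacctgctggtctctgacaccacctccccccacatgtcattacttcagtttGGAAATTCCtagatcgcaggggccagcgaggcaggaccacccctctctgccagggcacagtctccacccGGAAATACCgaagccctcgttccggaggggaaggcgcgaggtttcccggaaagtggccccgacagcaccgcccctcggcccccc
Madcam1, chr10:79664309-79664558, plus strand: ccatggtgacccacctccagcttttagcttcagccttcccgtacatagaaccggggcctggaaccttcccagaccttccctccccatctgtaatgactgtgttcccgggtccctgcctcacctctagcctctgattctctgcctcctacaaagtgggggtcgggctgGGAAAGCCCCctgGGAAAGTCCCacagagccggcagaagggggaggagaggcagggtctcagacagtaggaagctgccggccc
The window of *Sele* held an AP-1 match from -73 to -67 and a loose kB match from -145 to -137, counted back from the start site, while that of *Icam1* held loose kB matches at -153 to -145 and -84 to -76. *Madcam1* held 2 matches to the stricter kB consensus, at -83 to -74 and -70 to -61, and these overlap its loose matches. In the window of *Selp* an AP-1 match lay at -139 to -133 and a loose kB match at -14 to -6, and *Ackr1* held a loose kB match at -131 to -123. Among 27025 mouse promoters of the same table, 3.75% held the kB consensus, 15.6% the loose form, which was added after the sequences had been seen, and 6.87% the AP-1 letters. The forkhead letters TGTTTAC and TATTTAC, found in 3.09% and 2.75% of promoters, and the ETS letters CCGGAAG, found in 7.05%, had no match in the 5 windows. These are matches of letters, and binding was not measured.

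The mRNA levels of the 7 genes in the sorted cells lay far apart. In TPM, which are scaled for transcript length, the control means ran from 1033 for *Icam2* and 228 for *Icam1* through 24.1 for *Selp*, 22.7 for *Vcam1*, 4.46 for *Ackr1* and 2.86 for *Sele* to *Madcam1*, which was listed at 0 in 5 of the 8 libraries. *Selp* and *Vcam1* did not differ beyond their spread (SD 3.19 and 4.07 TPM, n = 4), and neither did *Ackr1* and *Sele* (SD 1.54 and 1.03 TPM, n = 4). The other neighbours in this order did not overlap among the control libraries. *Icam2* alone made up 76.6 to 79.7% of the summed TPM of the 7 genes in the controls, and *Icam1* a further 16.1 to 19.9%.

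**Figure D2:**
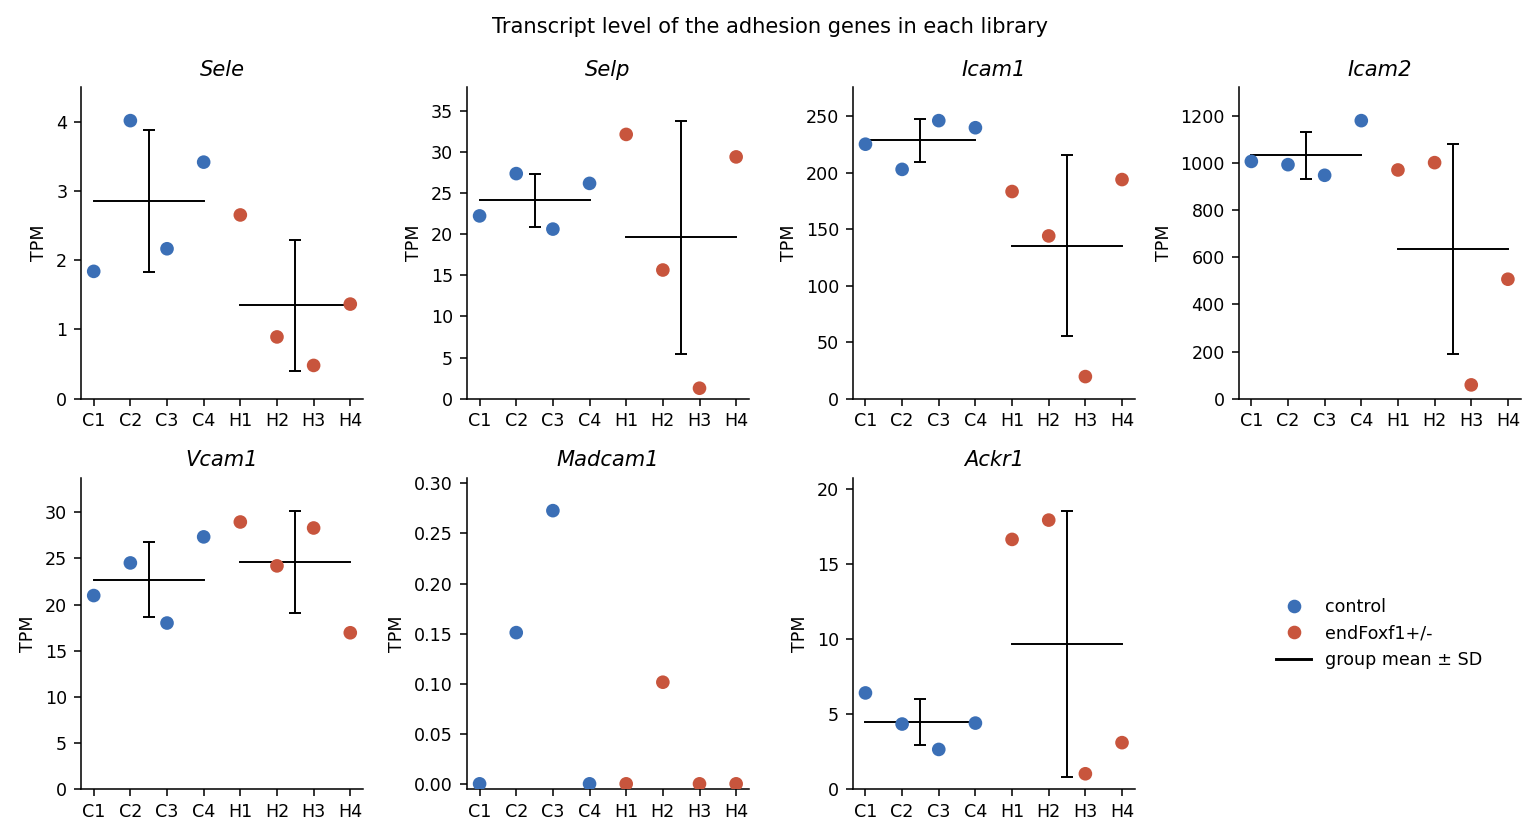
TPM of each adhesion gene in every library, with points for libraries (blue control, red endFoxf1+/-) and lines and bars for the group mean ± SD (n = 4), which is left out for *Madcam1*. The endFoxf1+/- points lie below all control points for *Icam1*, and H1 and H2 lie far above the controls for *Ackr1*.

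The filter of at least 1 TPM in at least 4 libraries was passed by 6 of the genes, among 14964 genes tested in all. None of the 6 passed the adjusted threshold of 0.05 (limma on log2(TPM + 1), Benjamini-Hochberg over all genes tested). The same held for the whole table, in which 0 genes (0%) were called (148 when libraries were weighted by quality) and 836 had an unadjusted p under 0.05, 2.77% of the genes lower and 2.82% higher. None of the 6 was among them. The median difference was -0.80 on the log2 scale over the 6 genes and -0.17 over all genes tested, and it was -0.07 and 0.14 without H3 and H4. Dividing each library by its median ratio brought the median of all genes to -0.01, and the 6 genes kept their signs.

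E-selectin mRNA was low, and in TPM most endFoxf1+/- libraries lay below the controls. *Sele* (chromosome 1, 164048234 to 164057677, plus strand, GRCm38) was at 1.84, 4.02, 2.17 and 3.42 TPM in C1 to C4 and at 2.66, 0.893, 0.481 and 1.37 TPM in H1 to H4. H2, H3 and H4 were below every control, and H1 lay inside the control range. The log2 fold change was -0.76 ± 0.35 (SE) with a 95% confidence interval from -1.54 to 0.02 and an adjusted p of 0.790 by limma. It was -0.51 without H3 and H4. At these levels the fold change depends on the pseudocount, and it was -1.19 with a pseudocount of 0.1 and -0.31 with 5. As a percentage of the endothelial marker mean, *Sele* was 0.404 to 0.914 in the controls and 0.573, 0.189, 1.99 and 0.568 in H1 to H4. On that scale only H2 was below every control, and H3 was above. The mean log2 difference relative to the markers was 0.41 (exact permutation test, two-sided, p = 0.8), beside a median of 1.001 over all genes tested.

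P-selectin mRNA was more abundant and showed no common direction. *Selp* lies 57586 bases beyond the end of *Sele*, on the same strand (164115264 to 164150026). It was at 22.2, 27.3, 20.6 and 26.2 TPM in C1 to C4 and at 32.1, 15.6, 1.27 and 29.4 TPM in H1 to H4. H1 and H4 were above and H2 and H3 below the whole control range. The log2 fold change of -0.84 ± 0.75 (SE, limma adjusted p 0.797) rested on H3, and was 0.04 without H3 and -0.09 without H3 and H4. As a percentage of the endothelial marker mean, *Selp* was 4.87 to 6.22 in the controls and 6.93, 3.32, 5.28 and 12.2 in H1 to H4. The mean log2 difference relative to the markers was 0.33 (exact permutation test, two-sided, p = 0.429), beside a median of 1.001 over all genes tested. Megakaryocytes also make P-selectin, and all 10 platelet and megakaryocyte markers had lower means in endFoxf1+/- TECs with an unadjusted p under 0.05, beside 2.77% of all genes tested. *Gp1bb*, a subunit of the platelet receptor for von Willebrand factor, was at 9.52 to 21.4 TPM in controls and 2.62 to 5.30 TPM in endFoxf1+/- libraries, and *Treml1*, a platelet granule receptor, at 14.8 to 32.4 and 2.75 to 11.5 TPM. The part of platelet RNA in the *Selp* values was not tested.

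Within a library, *Sele* stood below *Selp* throughout. The log2 difference was -3.03 to -2.50 in the controls and -3.18, -3.14, -0.62 and -3.68 in H1 to H4. H1, H2 and H4 were each below all controls in this difference and H3 was far above them. The mean difference changed by 0.08 with all libraries and by -0.60 without H3, where the exact permutation test (two-sided) reached 0.0571, the smallest p that 4 against 3 libraries allow.

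ICAM-1 was the adhesion gene whose TPM did not overlap between the groups. *Icam1* (chromosome 9, 21015985 to 21028817, plus strand) was at 225, 203, 246 and 240 TPM in C1 to C4 and at 183, 144, 19.6 and 194 TPM in H1 to H4. The highest endFoxf1+/- value was below the lowest control value (two-sided exact permutation, p = 0.0286, which is the lowest p possible with 4 against 4). No other of the 6 genes had this property, against 2.31% of all genes tested that were lower and 2.73% that were higher in every endFoxf1+/- library. The limma log2 fold change was -1.17 ± 0.64 (SE, unadjusted p = 0.101, adjusted p 0.790). Without H3 it was -0.40 ± 0.15, and without H3 and H4 -0.49 ± 0.14 with an unadjusted p of 0.00885 and an adjusted p of 0.297 by limma. With the endothelial marker mean as a covariate it was -0.32 with a 95% confidence interval from -0.94 to 0.31. In the fit without H3 and H4, 2.25% of genes were lower at an unadjusted p under 0.05. H1 and H2, with endothelial levels of 108% and 110% of the control mean, were both below all controls for *Icam1*, as 4.19% of all genes tested were.

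On the scale relative to endothelial transcripts, the *Icam1* values of the groups overlapped. As a percentage of the geometric mean of the 20 markers, *Icam1* was 49.4, 46.1, 66.4 and 52.5 in C1 to C4 and 39.5, 30.5, 81.1 and 80.6 in H1 to H4. H1 and H2 were below and H3 and H4 above every control. The mean log2 difference was 0.0008 over all libraries and -0.61 without H3 and H4. With all libraries, the median of this difference over all genes tested was 1.001. On this scale 8.19% of all genes tested had H1 and H2 below every control. The direction of *Icam1* relative to endothelial markers depended on the libraries with few endothelial transcripts, and H3 was also the library with most leukocyte transcripts. ICAM-1 is made by leukocytes, fibroblasts and epithelial cells as well, and their part was not tested.

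Of the 6 tested genes, ICAM-2 followed the endothelial transcripts most closely. *Icam2* (chromosome 11, 106377656 to 106388075, minus strand) was at 1007, 994, 949 and 1181 TPM in C1 to C4 and at 971, 1002, 58.6 and 507.3 TPM in H1 to H4. H1 and H2 were inside the control range, and H3 and H4 were at 5.68% and 49.1% of the control mean, beside 5.60% and 55.9% for the endothelial markers. The log2 fold change was -1.31 ± 0.80 (SE, limma adjusted p 0.790) over all libraries and -0.06 ± 0.13 without H3 and H4, with a 95% confidence interval from -0.36 to 0.24.

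Relative to the markers, *Icam2* had the smallest spread of the 6 genes in both groups, with an SD of 0.12 in the controls and 0.087 in the endFoxf1+/- libraries on the log2 scale (n = 4 each). It was 221, 226, 256 and 259% of the marker mean in C1 to C4 and 210, 213, 243 and 211% in H1 to H4, so that H1, H2 and H4 were just below every control. The mean log2 difference was -0.14 (exact permutation test, two-sided, p = 0.143), beside a median of 1.001 over all genes tested. None of the 6 genes was below every control in all endFoxf1+/- libraries on this scale, as 0.0468% of all genes were. With *Pecam1* alone as the reference, *Icam2* was below every control in all 4 endFoxf1+/- libraries (log2 difference -0.27, exact p = 0.0286), as 0.107% of all genes tested were on that scale. With *Cdh5* alone as the reference the difference was -0.13 (exact permutation test, two-sided, p = 0.2), so the result depended on the reference.

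The balance between both ICAM genes differed in opposite directions between the endFoxf1+/- libraries. The log2 difference of *Icam1* from *Icam2* was -2.16, -2.29, -1.94 and -2.30 in C1 to C4, and -2.40, -2.79, -1.54 and -1.38 in H1 to H4. The difference was wider than in any control in H1 and H2 and narrower in H3 and H4. Its mean changed by 0.14 with all libraries and by -0.42 without H3 and H4 (exact permutation test, two-sided, p = 0.714 and 0.133, the latter the lowest possible for 4 against 2).

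**Figure D3:**
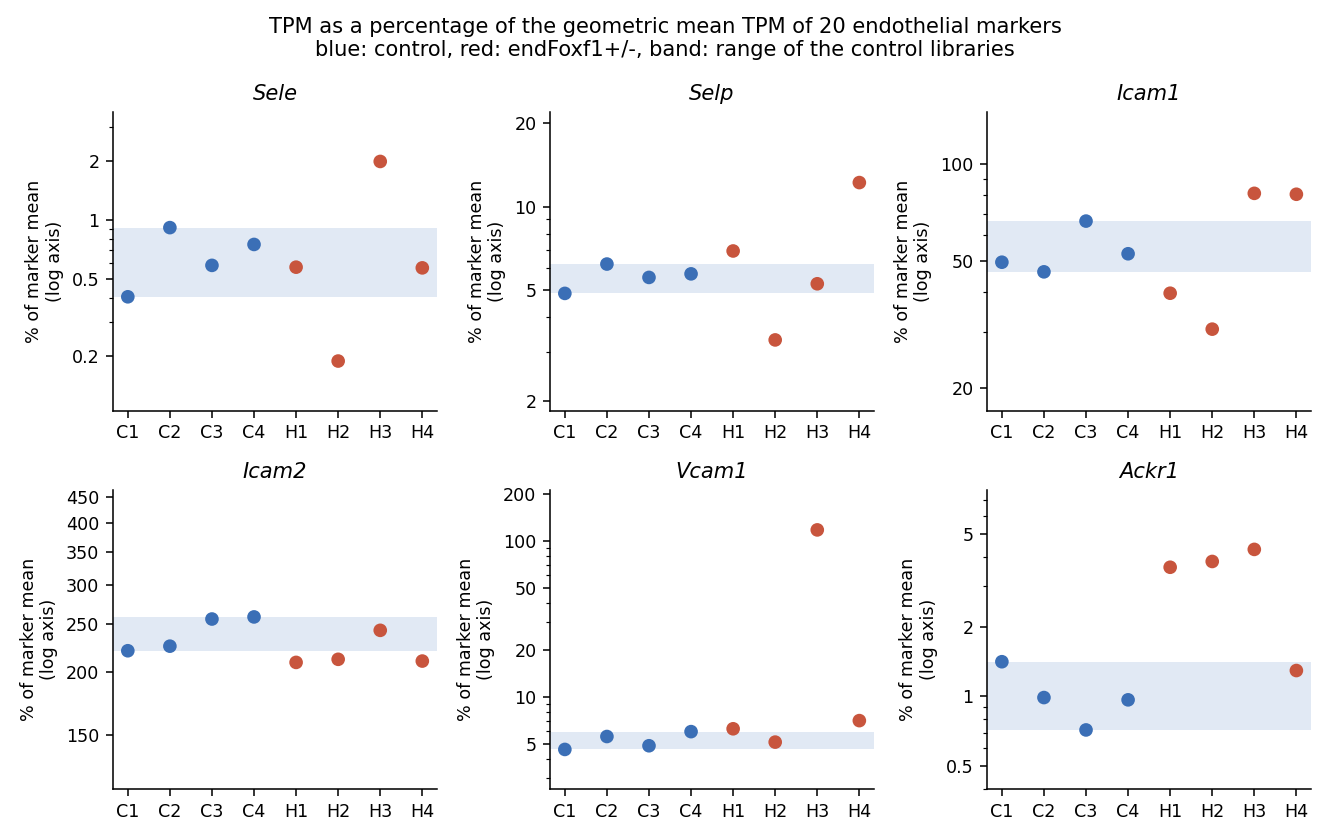
TPM of 6 adhesion genes as a percentage of the geometric mean TPM of the 20 endothelial markers in each library (log axis, blue control, red endFoxf1+/-), with a band for the range of the 4 controls. *Icam2* stays between 210 and 259% in all libraries, *Vcam1* leaves the band widely in H3 at 117%, and *Ackr1* is above it in H1, H2 and H3.

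VCAM-1 mRNA was apart from the endothelial transcripts in H3 and near its control share of them in the other libraries. *Vcam1* (chromosome 3, 116109949 to 116129688, minus strand) was at 21.0, 24.5, 18.0 and 27.3 TPM in C1 to C4 and at 28.9, 24.2, 28.3 and 16.9 TPM in H1 to H4. The groups overlapped, and H3, with 5.60% of the endothelial level, had about as much *Vcam1* as H1. The log2 fold change was 0.10 ± 0.25 (SE, limma adjusted p 0.914) with a 95% confidence interval from -0.46 to 0.66.

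In H3 *Vcam1* came to 117% of the endothelial marker mean, against 4.60 to 5.99% in the controls and 6.24, 5.13 and 7.04% in H1, H2 and H4. It made up 25.9% of the summed TPM of the 7 genes in H3 and 1.45 to 2.34% in the other 7 libraries. The log2 difference relative to the markers was 1.27 (exact permutation test, two-sided, p = 0.114), and 0.22 without H3. With all libraries, the median of this difference over all genes tested was 1.001. Macrophages and fibroblasts are known to make VCAM-1. In H3 *C1qb*, a complement gene of macrophages, was at 592 TPM against 15.2 to 31.2 TPM in the controls, and *Dcn*, which encodes the matrix protein decorin of fibroblasts, at 533 against 7.64 to 22.7 TPM. Their part in the *Vcam1* value of H3 was not tested. The log2 difference of *Vcam1* from *Icam1* within a library was -3.70 to -3.00 in the controls and -2.62, -2.53, 0.51 and -3.44 in H1 to H4. H1, H2 and H3 were above every control, and H4 was inside the control range. The mean of this difference changed by 1.27 with all libraries and by 0.71 without H3 and H4. The exact permutation test (two-sided) gave p = 0.114 and 0.133, the latter the lowest possible for 4 against 2.

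MAdCAM-1 mRNA was at the edge of what the libraries listed. *Madcam1* (chromosome 10, 79664559 to 79668537, plus strand) was listed at 0.151 TPM in C2, 0.273 TPM in C3 and 0.101 TPM in H2 and at 0 in the other 5 libraries. It did not pass the filter, and no fold change is given. The number of reads behind these values is unknown. Annotated genes on the opposite strand overlap *Selp*, *Vcam1* and *Icam1*, and since the libraries do not mark strand, their reads cannot be told apart from those of the adhesion genes.

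ACKR1 mRNA was high in H1 and H2, the libraries in which *Icam1* was low relative to endothelial transcripts. *Ackr1* (chromosome 1, 173331886 to 173333750, minus strand) was at 6.43, 4.35, 2.66 and 4.42 TPM in C1 to C4 and at 16.7, 18.0, 1.03 and 3.11 TPM in H1 to H4. H1 and H2 were at 373% and 402% of the control mean, H4 was inside the control range and H3 was below it. Both H1 and H2 exceeded every control, as 20.2% of all genes tested did. Over all libraries the log2 fold change was 0.46 ± 0.69 (SE, limma adjusted p 0.855). Without H3 and H4 it was 1.79 ± 0.28 (unadjusted p 2.16e-04, adjusted p 0.192, limma), and 9.87% of genes were higher at an unadjusted p under 0.05 in that fit.

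Weighting the libraries by their agreement with the rest of their group gave *Ackr1* a log2 fold change of 1.69 ± 0.28 with an adjusted p of 0.0335 (limma with array weights, Benjamini-Hochberg). In this fit 0.668% of genes were called higher, and H3 and H4 had weights of 0.0643 and 0.178 against 1.17 to 3.85 for the other libraries. With the endothelial marker mean as a covariate it was 1.30 ± 0.41 (unadjusted p 0.0138, adjusted p 0.632, limma).

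As a percentage of the endothelial marker mean, *Ackr1* was 1.41, 0.990, 0.718 and 0.967 in C1 to C4 and 3.60, 3.81, 4.29 and 1.29 in H1 to H4. H1, H2 and H3 were above every control and H4 was inside the control range. On the log2(TPM + 1) scale, which shifts low values, all 4 came above the controls, H4 by a narrow margin (-5.88 against -5.94 in C1), with a mean difference of 1.63 (exact permutation test, two-sided, p = 0.0286). On this scale 7.95% of all genes tested were above every control in all 4, and the median difference over all genes tested was 1.001. The p was 0.0571 with a pseudocount of 0.1, with *Pecam1* alone or with *Cdh5* alone as the reference. The first 493 bases of *Ackr1* are shared with *Cadm3* on the same strand, whose values were 0.446 to 1.47 TPM in the controls and 0.139 to 1.75 TPM in endFoxf1+/- libraries, and how shared reads were assigned is not given in the sources used here.

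**Figure D4:**
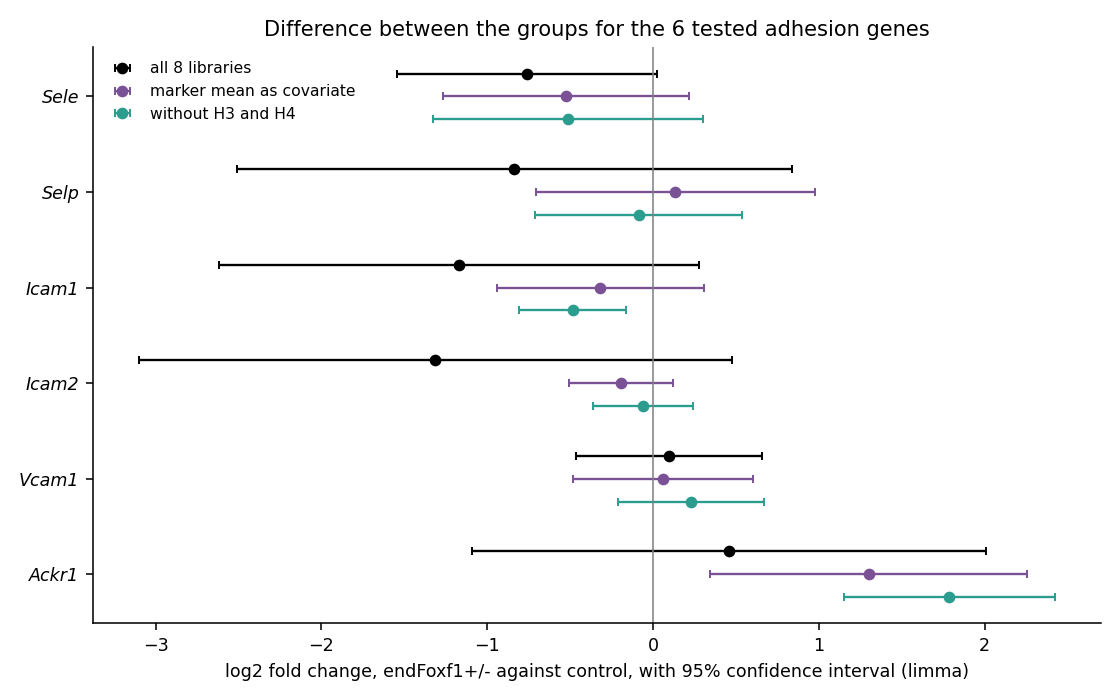
Log2 fold change of 6 adhesion genes in endFoxf1+/- against control TECs with 95% confidence intervals from limma, for all 8 libraries (black), with the endothelial marker mean as a covariate (violet) and without H3 and H4 (green). The intervals of all 6 genes cross 0 with all libraries, and without H3 and H4 that of *Icam1* lies below 0 and that of *Ackr1* above 0, while with the covariate that of *Ackr1* lies above 0 and that of *Icam1* crosses it.

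The profile over the 8 libraries was next compared between genes, by the root mean square (RMS) difference of log2(TPM + 1) values after centring each gene. Among the adhesion genes the closest were *Selp* and *Icam1* (RMS 0.317), then *Icam1* and *Icam2* (0.433), and the farthest were *Vcam1* and *Icam2* (1.43). All 8 libraries of both groups enter this measure. Over all genes tested, the profiles nearest to *Icam2* were those of *Ppp1r16b*, a phosphatase regulator (0.0624), and *Fmo1*, a flavin monooxygenase (0.0830). *Icam1* was nearest to *Enpp5* (0.158) and *Gnai1*, an inhibitory G protein subunit (0.160), and *Selp* to *Mylk*, myosin light chain kinase (0.231), and *Pik3r3* (0.244). *Ackr1* was nearest to *Ramp3*, a partner of the calcitonin receptor-like receptor (0.265), and *Gm14903* (0.331). *Ramp3* was at 15.2 to 24.2 TPM in the controls and at 43.6, 55.5, 6.18 and 14.8 TPM in H1 to H4. *Vcam1* was nearest to *Gm18359* (0.0985) and *Tab1* (0.112), and *Sele* to *4932443I19Rik* (0.217) and *Gm2026* (0.221), all at 0.322 to 8.26 TPM.

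Genes with which the adhesion molecules work were described by lists, each beside the median of -0.17 for all genes tested, of which 10182 were lower and 4782 higher in mean. Without H3 and H4 that median was 0.14, with 4382 lower and 10582 higher. No gene of these lists passed the adjusted threshold, so the genes with the smallest unadjusted p are named for each. Of 12 leukocyte counter-receptors, the integrins and glycoproteins that bind the adhesion molecules, 9 were higher and 3 lower in mean, with a median of 0.71 (0.21 without H3 and H4). *Selplg*, the ligand of P-selectin, was at 7.01 to 13.6 TPM in controls and at 19.7, 20.2, 70.5 and 9.02 TPM in H1 to H4. *Itgam*, a subunit of the integrin Mac-1 that binds ICAM-1, was at 2.56 to 5.16 TPM and at 8.33, 6.17, 42.4 and 3.09 TPM. H1, H2 and H3 were above the controls for both genes, as they were for *Ptprc* (16.5, 9.93 and 91.2 TPM), and H4 was within the control range.

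Of 8 tested genes that make or carry selectin ligands on endothelium, 6 were lower and 2 higher in mean (median -0.63, and 0.30 without H3 and H4). *Chst2*, a sulfotransferase of these ligands, was at 13.1 to 30.7 TPM in controls and at 18.8, 14.3, 1.82 and 4.56 TPM in H1 to H4. *Gcnt1*, which builds the branched glycan core of the ligands, was at 5.25 to 8.11 and 7.02 to 11.9 TPM. Of 12 tested docking and chemokine-presenting proteins, 7 were lower and 5 higher (median -0.47), and 6 were lower and 6 higher without H3 and H4 (median -0.05). *Cx3cl1*, a membrane-bound chemokine, was at 34.0 to 50.9 TPM in controls and at 35.01, 30.2, 2.23 and 16.5 TPM in H1 to H4, where H1 alone reached the control range. *Ackr4*, another atypical chemokine receptor, was at 6.65 to 13.4 and 0.694 to 10.7 TPM.

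The 10 junctional proteins of transmigration, which include the endothelial markers *Cdh5*, *Esam* and *Pecam1*, had 9 genes lower and 1 higher (median -0.59, and 0.17 without H3 and H4). *Cd47*, a surface protein that leukocytes bind, was lower in every endFoxf1+/- library, at 429, 440, 169 and 386 TPM against 462 to 600 TPM. The same held for 2.31% of all genes tested. *Cdh5*, the cadherin of endothelial junctions, was at 1419 to 1813 TPM in controls and at 1547, 1558, 94.9 and 1036 TPM.

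Among the signals that induce adhesion molecules, 6 of 14 cytokines and receptors were higher and 8 lower (median -0.27), and 8 were higher and 6 lower without H3 and H4 (median 0.05). *Il1a*, which encodes IL-1α, was at 11.6 to 25.6 TPM in controls and 7.16 to 14.6 TPM in endFoxf1+/- libraries, and *Tnfrsf1b*, a TNF receptor, at 3.91 to 8.91 and 7.76 to 19.2 TPM. Of 19 genes that relay these signals to the nucleus, 15 were lower and 4 higher (median -0.23, and -0.09 without H3 and H4). *Rela*, the NF-kB subunit p65, was at 70.6, 87.4, 89.6 and 76.5 TPM in C1 to C4 and at 65.9, 52.1, 27.5 and 61.9 TPM in H1 to H4 (log2 fold change -0.70 ± 0.29, limma adjusted p 0.790). Every endFoxf1+/- library was below every control, as for 2.31% of all genes tested, *Icam1* among them.

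Of 13 tested genes that inflammatory signals induce along with the adhesion molecules, 10 were higher and 3 lower in mean (median 0.57), and 7 were higher and 6 lower without H3 and H4 (median 0.06). *Ccl7*, a monocyte chemokine, was at 2.52 to 4.79 TPM in controls and at 11.2, 11.3, 96.2 and 9.24 TPM in H1 to H4, and *Tnfaip2*, a gene induced by TNF, at 3.58 to 5.12 and at 5.97, 6.44, 31.6 and 17.1 TPM. Both had their highest value in H3 and were above every control in every endFoxf1+/- library, as 2.73% of all genes tested were. All 9 restrainers of endothelial activation were lower in mean (median -0.92, and -0.26 without H3 and H4). The genes *Erg*, *Tek* and *Tie1* of this list are also among the 20 endothelial markers, and relative to those markers the median difference was 0.25 for the list and 1.001 for all genes tested. *Klf4*, a flow-responsive transcription factor, was at 365 to 484 TPM in controls and at 313, 254, 47.3 and 218 TPM in H1 to H4, lower in each, as for 2.31% of all genes tested. *Klf2*, its relative, was at 260 to 420 TPM and at 361, 250, 49.9 and 127 TPM.

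The leukocytes leave mainly through venules, and *Sele*, *Selp* and *Ackr1* are genes of venular endothelium. Of the 8 venous and venular genes, 6 were lower and 2 higher (median -0.96, and -0.24 without H3 and H4), 4 of them lower at an unadjusted p under 0.05, as 2.77% of all genes tested were. *Vwf*, which encodes the clotting protein stored with P-selectin, was at 639, 617, 329 and 722 TPM in C1 to C4 and at 251, 338, 21.7 and 179 TPM in H1 to H4. *Vegfc*, a lymphatic growth factor, was at 25.2 to 54.3 TPM in controls and 7.72 to 26.2 TPM in endFoxf1+/- libraries. *Vwf* and *Ackr1* thus stood on opposite sides of most controls in H1 and H2. All 10 platelet and megakaryocyte markers were lower in mean as well, and the part of platelet RNA in the *Vwf* values was not tested.

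The other markers of the sort are given for completeness. Over all genes tested, 2.31% were lower and 2.73% higher in every endFoxf1+/- library than in every control. All 20 endothelial markers were lower in mean over the 4 endFoxf1+/- libraries, 15 of them higher without H3 and H4, with *Cldn5*, a tight junction protein, lower in every endFoxf1+/- library (949, 835, 51.0 and 228 TPM against 998 to 1409 TPM) and *Ecscr* at 758, 697, 38.4 and 194 against 622 to 796 TPM. Of 18 leukocyte markers 17 were higher (median 1.38, and 0.77 without H3 and H4). *C1qa* was at 3.19 to 5.35 TPM in controls and at 23.2, 22.1, 171 and 8.04 TPM, and *Cd3g*, a T cell receptor subunit, at 0.321 to 1.09 and 1.40 to 10.2 TPM. In the fibroblast and pericyte list 7 of 13 were higher, led by *Lum*, a matrix proteoglycan (2.45 to 7.10 against 15.3 to 183 TPM), while *Rgs5*, a pericyte gene, was lower in every endFoxf1+/- library (10.7 to 18.9 against 0.602 to 6.66 TPM). Of 6 lymphatic endothelial markers 4 were lower (median -0.57), but 5 were higher without H3 and H4 (median 0.28), with *Pdpn* at 4.30 to 4.82 TPM in controls and 5.34 to 18.0 TPM in endFoxf1+/- libraries and *Flt4* at 35.1 to 57.3 and 2.65 to 45.2 TPM. Of the 6 tested erythroid markers all were lower, and 5 were lower without H3 and H4, when *Alas2*, a gene of heme synthesis, was higher (0.564 to 4.36 TPM in controls, 4.70 and 6.64 TPM in H1 and H2). *Hba-a1* and *Epor* had the smallest unadjusted p (*Hba-a1* at 24.5 to 65.1 against 8.38 to 36.8 TPM, *Epor* at 1.22 to 4.06 against 0 to 1.71 TPM). Of 11 epithelial markers 10 were lower (*Krt19* at 4.95 to 25.6 against 6.53 to 9.37 TPM, *Scgb1a1* at 226 to 1710 against 46.6 to 1130 TPM). The 2 tested mesothelial markers were *Krt19* and *Wt1* (1.25 to 2.22 against 0.516 to 3.03 TPM). The part of these other cells in the adhesion gene values was not tested.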

How the data were processed

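RNA was sequenced from 8 sorted samples, prepared with Nextera XT, a kit that does not mark strand. The authors deposited 1 TPM value per gene symbol and library, scaled for transcript length and library total. The submitters' processing notes name TopHat, Cufflinks, Subread, DESeq2 and the builds GRCm38 and mm10 without roles or versions. TPM keep no depth, so depth is unknown, no counting intervals are given and only the spread between libraries shows the precision. The series' design gives 4 mice in each group, and the labels give 1 sample per library without naming its animal. A figure legend of the study gives fewer samples per group for its RNA-seq, without saying which. No 2 libraries held identical values.

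TPM were analysed as log2(TPM + 1) with limma 3.58.1 in R 4.3.3 (lmFit, eBayes with an intensity trend, 95% confidence intervals), over the 14964 genes with at least 1 TPM in at least 4 libraries, with p-values adjusted by Benjamini-Hochberg at a threshold of 0.05. For single values an exact permutation test (two-sided, scipy 1.17.1) ran over all 70 assignments of 4 against 4. The study's DESeq2 test needs counts and was not run. Positions are from GENCODE on GRCm38, and promoters from RefSeq (GRCm38.p6). The adhesion genes and all gene lists were chosen with earlier results of these data known. Named genes are the 7 adhesion genes, *Foxf1*, *Ptprc* and *Pecam1*, the 2 nearest profiles of each adhesion gene, and from each list those past the adjusted threshold or, with none, the 2 with the smallest unadjusted p. A gene that this rule would name is not reported here. *C1qb*, *Dcn*, *Cadm3*, *Alas2* and the genes shared with the endothelial markers were named after their values were seen. Alternatives were other pseudocounts, filters, scalings, weights, references and libraries left out, and the endothelial covariate was added after seeing the data.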

Additional observations from a re-analysis of the deposited data

Results flagged for a closer look

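Of the 28 groups of 4 libraries examined for the adhesion genes, 3 held a library whose gap to its nearest neighbour was, as a share of the range of the group, above Dixon's 95% critical value, and chance alone would mark about 1 in 20. All were in endFoxf1+/- TECs. *Vcam1* relative to endothelial markers was 0.22 in H3 on the log2 scale, against -3.96, -4.23 and -3.75 in H1, H2 and H4. *Icam2* relative to endothelial markers was 1.25 in H3, against 1.07, 1.09 and 1.07. *Madcam1* was listed at 0.101 TPM in H2 and at 0 in the other 3 libraries, a gap set by values near the lower end of the scale.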

How the results depend on the processing

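Of 241 values recomputed for the adhesion genes, 200 kept their direction and their side of the threshold. The exact tests with libraries left out allow no p below 0.0571. For those values the side of the threshold was fixed in advance, so this count does not measure stability. H3 and H4 limit most statements, since without them the group keeps 2 libraries and the smallest exact p is 0.133. The number of genes called was 0 with all libraries, 148 with array weights (48 lower, 100 higher), 3 without H3 and H4, 1 with the endothelial covariate and 0 to 1 when single libraries were left out. On TPM, *Selp* turned to 0.026 with array weights and 0.13 with the covariate, and *Ackr1* rose to 1.69 with array weights. Leaving out single libraries gave *Selp* -1.25 to 0.037, *Vcam1* -0.0025 to 0.26 (lowest without C3) and *Ackr1* -0.0028 to 1.07 (lowest without H2, highest without H3). Relative to endothelial markers, all libraries gave *Sele* 0.41, *Selp* 0.33, *Icam1* 0.0008, *Ackr1* 1.63 and *Madcam1* 1.07. Leaving out H3 and H4 gave *Sele* -0.64, *Selp* -0.21, *Icam1* -0.61, *Ackr1* 1.66 and *Madcam1* -0.19. The values of *Madcam1* mostly reflect the marker mean, since it was listed at 0 in most libraries. *Sele* was -0.0011 with a pseudocount of 0.1 and -0.37 to 0.92 with single libraries left out, and *Icam1* was -0.0071 with a pseudocount of 5, -0.13 with *Pecam1* as the reference and -0.21 to 0.27 with single libraries left out. *Icam2* passed the threshold at -0.19 with a pseudocount of 5 and at -0.27 with *Pecam1*, but not at -0.13 with *Cdh5*. *Vcam1* passed it at 1.29 with *Cdh5*. *Ackr1* missed it at 1.59 with a pseudocount of 0.1, 1.50 with *Pecam1* and 1.65 with *Cdh5* (1.27 to 2.02 with single libraries left out, where the exact test allows no p below 0.0571). *Icam1* against *Icam2* was -0.42 without H3 and H4 and -0.072 to 0.40 with single libraries left out. *Sele* against *Selp* was -0.19 with a pseudocount of 0.1, -0.43 without H3 and H4 and -0.60 to 0.42 with single libraries left out. The causes of these changes were not tested.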
